A study of Mus musculus with 23 samples.

Results

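Acute-phase proteins are plasma proteins whose synthesis by hepatocytes shifts during inflammation. The 10 genes described here code for such proteins and were taken by name, as the rows of the expression table that carry their symbols. The list was drawn up with earlier results of these data known. All 10 were found among the 48895 symbols of the table. Orm1, Orm2 and Orm3 code for orosomucoids (alpha-1-acid glycoproteins), which bind basic drugs and lipids in plasma. Lcn2 codes for lipocalin 2, which withholds iron from bacteria by binding siderophores. Hp (haptoglobin) and Hpx (hemopexin) capture free hemoglobin and free heme, and Itih4 is a heavy chain of the inter-alpha-trypsin inhibitor family. Crp codes for C-reactive protein, a pentraxin that is a major reactant in humans and a minor one in mice. Alb (albumin) and Ttr (transthyretin, the carrier of thyroxine and of retinol-binding protein) are the classical negative reactants.

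The response is driven mainly by interleukin 6 and related cytokines, which signal through gp130 and STAT3 in hepatocytes, and by interleukin 1, which acts through NF-kB and C/EBP factors. Genes that answer mostly to interleukin 6 and genes that need both signals are textbook subclasses of the response. Negative reactants are transcribed at a high basal rate under hepatocyte factors, and their messenger RNA falls in a classical acute-phase response.

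The tissue came from male BALB/c mice, 4 to 6 weeks old at the start. CT26 cells, a mouse colon carcinoma line of BALB/c origin, were inoculated into the cecal serosa of tumor-bearing mice, and sham-operated mice received medium without cells. Poly(A) RNA was sequenced 3 weeks later. Control liver came from 5 sham mice, and each of 9 tumor-bearing mice gave a liver, called pre-metastatic liver, as well as its primary tumor. Tumors and pre-metastatic livers with the same mouse number therefore share an animal, all tumors derive from 1 transplanted cell line, and the sham mice had surgery but no tumor. The libraries are named by mouse, C1 to C7 for sham-operated and M1 to M12 for tumor-bearing mice, as some numbers are not used.

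The 23 libraries held 44587556 to 79773163 counts each. Cyp2e1, a hepatocyte enzyme, was at 4712 to 6212 RPKM (reads counted per kilobase of gene, scaled to the library's total) in control livers and at 2474 to 5755 RPKM in pre-metastatic livers. In tumors Cyp2e1 was at 0.311 to 16.9 RPKM, the differentiated colon keratin gene Krt20 at 27.8 to 113 RPKM, and the mucin gene Muc2 and the epithelial gene Epcam at no more than 0.235 and 1.88 RPKM. The livers also differed in clock genes: an index of Dbp, Per3 and Ciart against Arntl, Npas2 and Clock divided them into 9 early-phase and 5 late-phase livers, with 4 of the 5 control livers and 5 of the 9 pre-metastatic livers in the early phase. The index was divided at its widest gap, between M7 (-0.102) and C7 (0.981). C7, the only late-phase control, was almost as far from the next late-phase liver, M12 (2.05), so its phase is uncertain. In bulk tissue, fewer cells of a type and less RNA per cell cannot be told apart.

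The 3 orosomucoid genes lie side by side on chromosome 4, all on the plus strand (mm10): Orm1 at chr4:63344556-63348163, Orm3 at chr4:63355280-63359511 and Orm2 at chr4:63362449-63365877. Lcn2 is at chr2:32384637-32387739, Hp at chr8:109575128-109579172, Hpx at chr7:105591611-105600116, Itih4 at chr14:30886476-30901986, Alb at chr5:90460870-90476602 and Crp at chr1:172698056-172699966. All 10 are protein-coding genes. The promoter of Ttr was left out of the search below, and none was used for Orm1 and Hp. RefSeq promoter windows, from 250 bases before to 50 bases after the transcription start, were used for 7 of the 10 genes (Orm2, Orm3, Lcn2, Hpx, Itih4, Alb and Crp). 5 of these windows are printed 5′ to 3′ on the strand of the gene (GRCm38.p6): the pair of neighbours whose levels differed most in their response (Orm2 at chr4:63362199-63362498 and Orm3 at chr4:63355908-63356207, plus strand), 2 genes that rose with Orm2 (Lcn2 at chr2:32387690-32387989, minus strand, and Itih4 at chr14:30886226-30886525, plus strand) and a negative reactant (Alb at chr5:90460620-90460919, plus strand). The Orm3 window lies inside the Orm3 gene as counted, which begins upstream of the RefSeq gene. Capitals mark a match to the C/EBP motif TTGCNNAA or the STAT motif TTCNNNGAA on either strand.
Orm2: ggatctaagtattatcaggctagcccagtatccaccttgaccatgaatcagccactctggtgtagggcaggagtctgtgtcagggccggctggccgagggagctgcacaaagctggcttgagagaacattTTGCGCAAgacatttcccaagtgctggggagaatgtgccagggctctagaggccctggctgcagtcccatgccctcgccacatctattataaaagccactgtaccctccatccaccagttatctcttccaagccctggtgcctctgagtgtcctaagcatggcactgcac
Orm3: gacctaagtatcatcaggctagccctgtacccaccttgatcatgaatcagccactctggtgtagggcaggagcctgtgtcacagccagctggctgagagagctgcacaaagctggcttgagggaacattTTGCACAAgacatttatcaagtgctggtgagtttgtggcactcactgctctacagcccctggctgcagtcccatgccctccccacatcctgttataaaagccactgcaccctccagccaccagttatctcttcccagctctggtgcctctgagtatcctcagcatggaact
Lcn2: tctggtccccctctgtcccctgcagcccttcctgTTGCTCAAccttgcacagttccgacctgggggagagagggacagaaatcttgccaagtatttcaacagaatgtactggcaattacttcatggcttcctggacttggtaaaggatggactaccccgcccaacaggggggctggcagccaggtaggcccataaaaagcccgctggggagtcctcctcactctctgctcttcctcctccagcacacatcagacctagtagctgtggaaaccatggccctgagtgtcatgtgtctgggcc
Itih4: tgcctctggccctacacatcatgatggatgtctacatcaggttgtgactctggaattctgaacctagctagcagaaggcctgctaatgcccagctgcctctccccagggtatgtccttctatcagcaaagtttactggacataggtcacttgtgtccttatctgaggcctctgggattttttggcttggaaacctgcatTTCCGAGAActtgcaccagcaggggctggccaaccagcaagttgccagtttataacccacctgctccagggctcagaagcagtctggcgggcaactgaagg
Alb: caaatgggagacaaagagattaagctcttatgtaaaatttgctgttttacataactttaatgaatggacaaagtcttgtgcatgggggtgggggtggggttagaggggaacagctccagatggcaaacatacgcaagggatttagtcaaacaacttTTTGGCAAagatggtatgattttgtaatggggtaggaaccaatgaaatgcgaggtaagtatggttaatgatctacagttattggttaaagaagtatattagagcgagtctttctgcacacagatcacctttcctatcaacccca

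The C/EBP motif was present in 5 of the 7 windows (Orm2, Orm3, Lcn2, Hpx and Alb), and in 10.8% of all 32851 RefSeq promoter windows of the same length. The STAT motif was present in 1 of the 7 (Itih4) and in 8.30% of all windows. The NF-kB consensus was present in 0 of the 7 and in 8.46% of all. No motif searched overlapped another in these windows. In the Orm2 and Orm3 windows the C/EBP match began 120 and 121 bases before the start. Over 295 aligned bases these windows had 263 identical bases (89.2%), so that the Orm2 and Orm3 windows are close copies of each other and both hold the C/EBP match. A match is a description of letters and no evidence of binding.

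Among these genes, 7 of the 8 positive reactants were higher in livers of tumor-bearing mice, and neither negative reactant passed the test. Of the 10 genes, 7 rose in pre-metastatic liver against control liver (Orm2, Orm1, Lcn2, Hpx, Itih4, Hp and Crp), none fell and 3 did not pass the test (Orm3, Alb and Ttr), by edgeR's quasi-likelihood test with Benjamini-Hochberg adjustment over 16987 genes. Over all genes tested, 17.7% were called higher and 13.3% lower. The median log2 fold change of the 10 genes was 1.34, beside 0.01 over all genes tested. The rises ran from 39.0-fold for Orm2 to 1.61-fold for Crp.

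**Figure D1:**
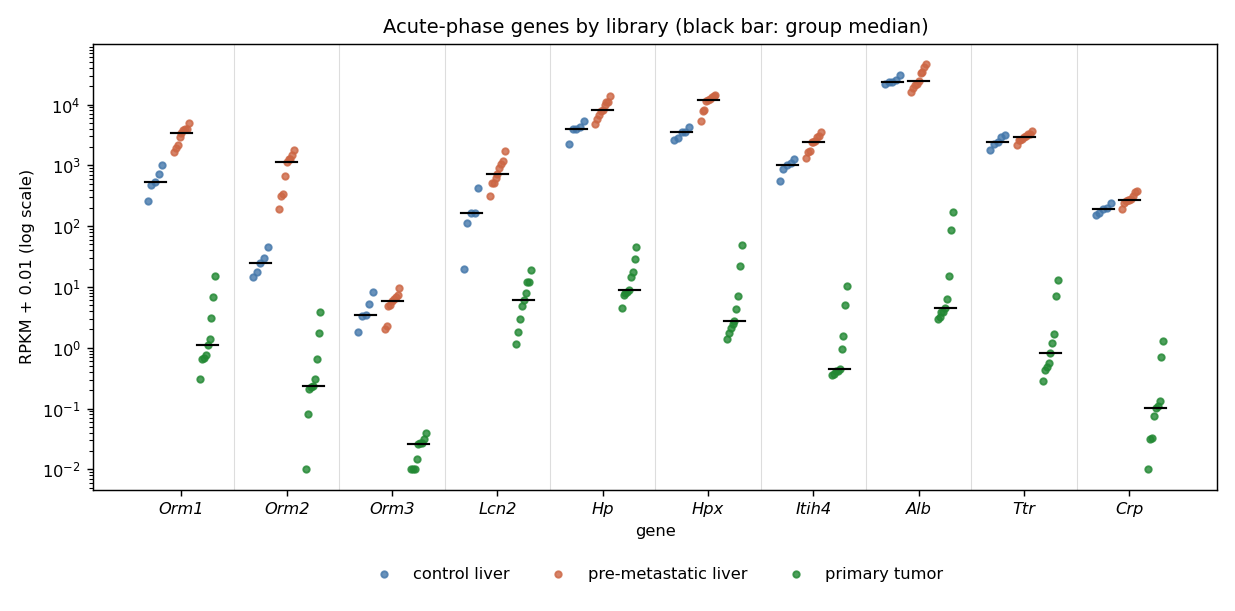
Level of each acute-phase gene in each library, as RPKM + 0.01 on a log axis, by group (5 control livers, 9 pre-metastatic livers, 9 primary tumors); the black bar is the group median. Orm2 in pre-metastatic livers (189 to 1809 RPKM) stood above every control liver (14.4 to 44.99 RPKM), while Alb and Ttr overlapped between the livers, and tumors were below both for every gene.

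Orm2 was at 44.99, 24.4, 29.5, 17.9 and 14.4 RPKM in control livers C1, C4, C5, C6 and C7. In pre-metastatic livers Orm2 was at 189 RPKM at the lowest, 1150 RPKM at the median and 1809 RPKM at the highest. The groups did not overlap, and the lowest pre-metastatic values (M2, M5 and M10, 189 to 333 RPKM) were apart from the other 6 livers, which began at 675 RPKM. The log2 fold change was 5.28 ± 0.67 (SE; edgeR, adjusted p = 8.1e-05, n = 5 and 9). Orm1 was at 260 to 995 RPKM in control livers, with a median of 527 RPKM, and at 1628 to 4919 RPKM in pre-metastatic livers, with a median of 3360 RPKM. Again no pre-metastatic liver overlapped the controls, and the log2 fold change was 2.51 ± 0.38 (adjusted p = 0.00024).

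Orm3, the third gene of the cluster, did not follow its neighbours. It was at 8.20, 3.42, 5.24, 3.31 and 1.83 RPKM in the 5 control livers and at 2.02 to 9.70 RPKM, with a median of 5.92 RPKM, in pre-metastatic livers. Only 1 pre-metastatic liver (M7) lay above every control, and the log2 fold change was 0.43 ± 0.40 (adjusted p = 0.446). Its RPKM is per 3234 bases, the length the table gives for Orm3, against 779 for Orm1 and 774 for Orm2, so its counts were also set against those of Orm1. This ratio, and that of Orm2, were looked at after the levels had been seen.

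Per 100 Orm1 counts, control livers had 3.01 to 11.3 Orm2 counts (median 3.38) and pre-metastatic livers 11.5 to 37.9 (median 29.2). For Orm3 the order was the opposite, with 1.60 to 8.38 counts per 100 Orm1 counts in control livers (median 2.61) and 0.384 to 1.51 in pre-metastatic livers (median 0.677). Neither ratio overlapped between the groups (means 5.11 ± 3.49 and 26.7 ± 10.6 for Orm2, 3.60 ± 2.76 and 0.746 ± 0.317 for Orm3, SD; exact two-sided rank-sum test, p = 0.000999 for each, also adjusted over both, the smallest p that 2002 splits allow at 0.000999). Relative to Orm1, orosomucoid counts thus shifted toward Orm2 and away from Orm3. As Orm1 had risen and Orm3 had not passed the test, the lower Orm3 ratio is no separate evidence on Orm3. These ratios are not scaled for gene length and do not give the makeup of transcripts. Control liver C5 was nearest to the other group in the Orm2 ratio and farthest from it in the Orm3 ratio. It also had the lowest Orm1. Within the early-phase livers (4 and 5), the exact p was 0.0159 for each ratio, the smallest that 126 splits allow.

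**Figure D2:**
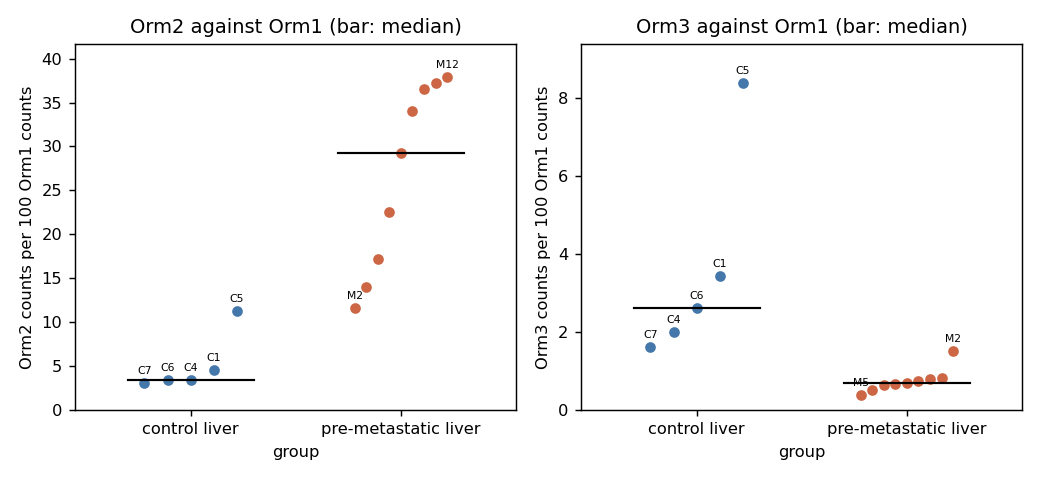
Orm2 counts (left) and Orm3 counts (right) per 100 Orm1 counts in 5 control and 9 pre-metastatic livers; each point is a liver, the bar is the median, and all controls and the lowest and highest pre-metastatic livers are named. Pre-metastatic livers ran from 11.5 to 37.9 for Orm2, above all controls, and from 0.384 to 1.51 for Orm3, below all controls.

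The orosomucoid transcripts resemble each other, so counts may have been assigned between them. In the GENCODE transcripts, Orm1 and Orm2 were identical at 91.0% of aligned bases, Orm2 and Orm3 at 88.5% and Orm1 and Orm3 at 86.5%. The Orm3 transcript compared had 773 bases, while Orm3 was counted over 3234 bases. Of the 50-base stretches of Orm1, 20.4% also occurred in Orm2 and 2.20% in Orm3, and of the 100-base stretches 6.95% and 0%. How reads that match more than 1 gene were counted is not given in the sources used here, and the number passed from one gene to another was not tested. The values of single orosomucoid genes are therefore uncertain, most of all where counts were small beside those of Orm1. That was so for Orm2 in control livers and for Orm3 in both groups. For Orm3 it was more so in pre-metastatic livers (0.384 to 1.51 per 100 Orm1 counts) than in control livers (1.60 to 8.38).

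Lcn2 was at 427, 165, 19.5, 112 and 166 RPKM in control livers C1, C4, C5, C6 and C7, the widest relative spread of the 10 genes in that group. In pre-metastatic livers it was at 314 to 1709 RPKM, with a median of 734 RPKM. 8 of the 9 lay above every control, and M2 lay below C1. Lcn2 rose by 2.32 ± 0.60 on the log2 scale (edgeR, adjusted p = 0.0085), and by 3.02 without C1 (adjusted p = 0.0026). Lcn2 is also made by neutrophils. The 10 neutrophil markers summed to 6.62 to 22.5 RPKM in control livers and 7.53 to 143 RPKM in pre-metastatic livers, none was at 0 in every library, and 6 of the 9 that could be tested rose and none fell. Their part in the Lcn2 values was not tested.

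The hemoglobin and heme scavengers rose together. Hpx was at 2626 to 4331 RPKM in control livers (median 3483) and 5395 to 14230 RPKM in pre-metastatic livers (median 11881), with no overlap and a log2 fold change of 1.80 ± 0.28 (adjusted p = 0.00033). Hp was at 2287 to 5334 RPKM (median 3997) and 4772 to 13819 RPKM (median 8163). Only M2 fell within the control range for Hp, and the log2 fold change was 1.25 ± 0.30 (adjusted p = 0.0058). In control livers the ranges of Hp and Hpx overlapped. Hpx exceeded Hp in each pre-metastatic liver, and Hp exceeded Hpx in 4 of the 5 control livers.

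Itih4 was at 551 to 1265 RPKM in control livers (median 1030) and 1323 to 3567 RPKM in pre-metastatic livers (median 2397). The groups were separated by a narrow gap, between C1 at 1265 and M10 at 1323 RPKM, and the log2 fold change was 1.42 ± 0.29 (adjusted p = 0.0019). Crp was at 199, 163, 151, 237 and 188 RPKM in control livers and at 193 to 377 RPKM (median 274) in pre-metastatic livers, of which 8 of 9 lay above every control. Its log2 fold change, 0.69 ± 0.16 (adjusted p = 0.0042), was the smallest of the 7 that passed.

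Neither of the negative reactants passed the test in pre-metastatic liver. Alb was at 21749, 25215, 23888, 23276 and 30271 RPKM in control livers, a coefficient of variation of 13.1%. In pre-metastatic livers Alb spread from 15822 RPKM (M5) to 46034 RPKM (M6), a coefficient of variation of 37.5%. 4 of the 9 lay above every control (M1, M6, M10 and M12) and 4 below every control (M2, M5, M7 and M8), so the group medians of 23888 and 24048 RPKM were close. The log2 fold change was 0.31 ± 0.29 (edgeR, adjusted p = 0.445). Ttr was at 1756 to 3133 RPKM in control livers (median 2432) and 2191 to 3705 RPKM in pre-metastatic livers (median 2890), with a log2 fold change of 0.30 ± 0.13 (adjusted p = 0.095). By DESeq2 the Ttr difference passed the threshold as higher (adjusted p = 0.049). Neither gene had a negative log2 fold change under any of the alternatives run.

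The order of levels, all in RPKM, changed between the livers. In control livers the medians descended from Alb through Hp, Hpx, Ttr, Itih4, Orm1, Crp, Lcn2 and Orm2 to Orm3. In pre-metastatic livers they descended from Alb through Hpx, Hp, Orm1, Ttr, Itih4, Orm2, Lcn2 and Crp to Orm3. In control livers the ranges of neighbours in this order were separate between Alb and Hp, Ttr and Itih4, Orm1 and Crp, and Orm2 and Orm3, and all other neighbours overlapped. Within single control livers, Itih4 was above Orm1 in 5 of 5, and the other overlapping neighbours kept their order in 3 or 4 of 5. In pre-metastatic livers only Alb and Hpx, and Crp and Orm3, had separate ranges. Hpx was nevertheless above Hp, Hp above Orm1, Itih4 above Orm2 and Lcn2 above Crp in 9 of 9 livers. The order of the remaining neighbours differed from mouse to mouse: Orm1 was above Ttr in 5 of 9, and Ttr above Itih4 and Orm2 above Lcn2 in 6 of 9 each. Alb stood above, and Orm3 below, all other members in every liver. The place of Orm3 depends on the 3234 bases given as its length. In control liver C5 it had 1018 counts, beside 998 for Lcn2. The 10 genes together took 6.20 to 8.09% of all counts in control livers and 6.39 to 14.5% in pre-metastatic livers.

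Other acute-phase genes were counted in the same fit. Of 18 other positive acute-phase genes, 13 rose, 1 fell and 4 did not pass the test, with a median log2 fold change of 1.22. Saa2 and Saa1, major serum amyloid A genes, rose by 5.28 ± 1.06 (adjusted p = 0.0018) and 3.90 ± 0.87 (adjusted p = 0.0035), and Saa3 by 2.89 ± 0.40 (adjusted p = 0.00015). A2m also passed. It had no more than 4 counts in any of the 5 controls, and between 41 and 891 counts in tumor-bearing mice. The gene that fell was Hamp, which codes for the iron hormone hepcidin: it was at 2010 to 5461 RPKM in control livers and 29.3 to 1135 RPKM in pre-metastatic livers (log2 fold change -2.74 ± 0.68, adjusted p = 0.0069).

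Of 8 other negative acute-phase genes, 3 rose, 1 fell and 4 did not pass, with a median log2 fold change of 0.08. Rbp4, the retinol-binding protein that travels with transthyretin, fell by 1.21 on the log2 scale (SE 0.14, adjusted p = 5.2e-05), with 3151 to 3873 RPKM in control livers and 1167 to 2011 RPKM in pre-metastatic livers. Serpina6 (corticosteroid-binding globulin), Ambp (the alpha-1-microglobulin and bikunin precursor) and Trf (transferrin) rose, with log2 fold changes of 2.22 ± 0.51, 1.34 ± 0.17 and 1.23 ± 0.21 (adjusted p = 0.0042, 8.1e-05 and 0.00052). By the tests on RPKM and with library totals in place of TMM, 2 or 3 of these 8 genes were lower.

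**Figure D3:**
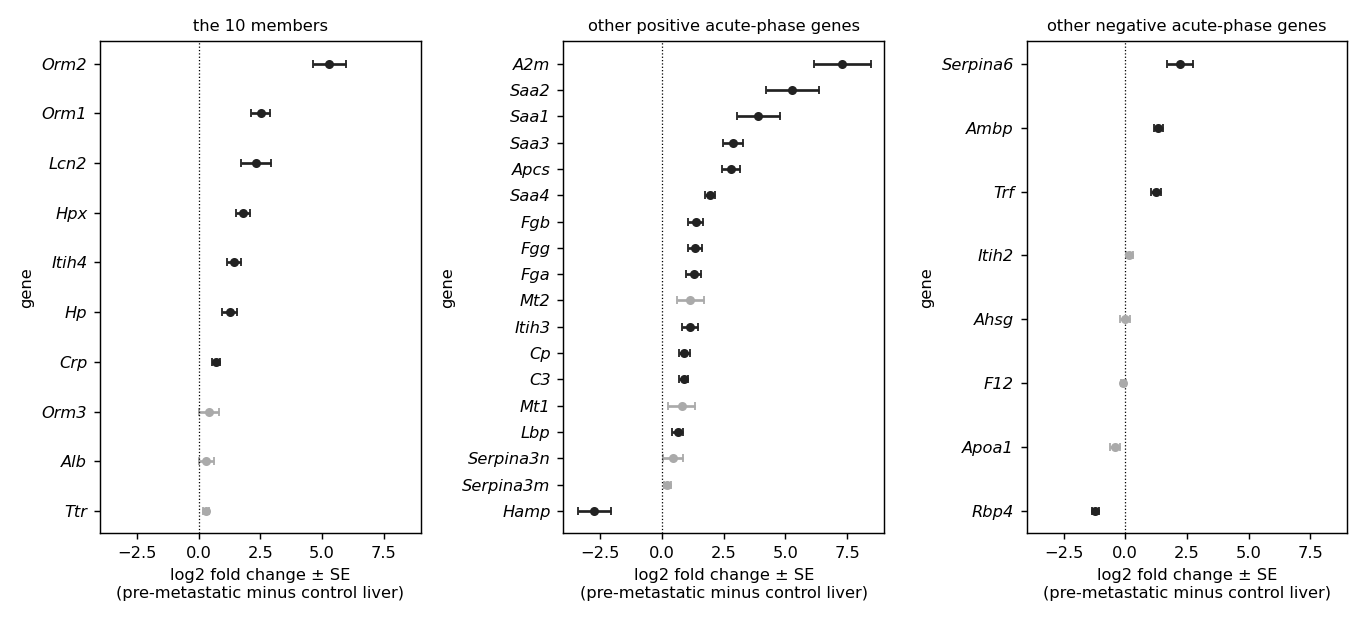
Log2 fold change ± SE (edgeR) in pre-metastatic liver (n = 9) against control liver (n = 5) for the 10 members, 18 other positive and 8 other negative acute-phase genes; black points have an adjusted p under 0.05 and grey points do not. Orm2 (5.28) leads the members, Alb (0.31) and Ttr (0.30) are grey, and Rbp4 (-1.21) and Hamp (-2.74) are the 2 black points below 0.

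Genes of the signalling pathways and of the hepatocyte program were counted likewise. Of 14 genes for receptors and signalling, 9 rose, none fell and 5 did not pass: Osmr (an oncostatin M receptor chain) by 2.08 ± 0.36, Junb by 1.54 ± 0.20, Socs3 (a feedback inhibitor of STAT3 signalling) by 1.26 ± 0.21 and Lifr by 1.11 ± 0.25 on the log2 scale (adjusted p = 0.00061, 9.7e-05, 0.00049 and 0.0036). Of 8 hepatocyte transcription factors, 1 rose, 4 fell and 3 did not pass. Nr3c1, the glucocorticoid receptor, rose by 0.56 ± 0.14 (adjusted p = 0.0088). Foxa2, Foxa1 and Hnf4a were among those that fell, with log2 fold changes of -1.32 ± 0.28, -0.73 ± 0.23 and -0.70 ± 0.20 (adjusted p = 0.0027, 0.023 and 0.015). The 8 hepatocyte markers moved with this comparison too: 1 rose, 4 fell and 3 did not pass, and their summed level was 11023 to 17918 RPKM in control livers and 5812 to 10553 RPKM in pre-metastatic livers, with none at 0. Their part in the members' values was not tested.

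Of 8 genes that take up or process the members' ligands, Lrp1, a receptor for hemopexin-heme complexes, rose by 0.70 ± 0.12 on the log2 scale (adjusted p = 0.00061), and the ferritin genes Ftl1 and Fth1 fell, with log2 fold changes of -0.59 ± 0.13 and -0.41 ± 0.11 (adjusted p = 0.0028 and 0.013). Cd163, the receptor for haptoglobin-hemoglobin complexes, had a log2 fold change of 0.54 ± 0.28 (adjusted p = 0.164). Of 7 inducer cytokines, 3 had enough counts in liver to be tested, and Il1b rose by 1.24 ± 0.28 (adjusted p = 0.0043). Il6 had at most 10 counts in any liver. The 7 macrophage markers summed to 75.0 to 153 RPKM in control livers and 174 to 494 RPKM in pre-metastatic livers, and 6 of the 7 rose.

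All 7 calls held in each of the 24 alternative analyses, which left out each liver in turn, used the early-phase livers alone or changed the scaling, filter or test. In the early-phase livers the log2 fold changes were 5.26 for Orm2, 2.38 for Lcn2 and 0.75 for Crp.

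Among the 9 pre-metastatic livers, 6 positive reactants varied together from mouse to mouse, Ttr varied inversely to them, and Crp and Alb followed neither. Of the 45 pairs of members, 23 were correlated past an adjusted exact p of 0.05. The share among pairs of all genes was not computed, so this count cannot be read as particular to these genes. All 15 pairs among Orm1, Orm2, Lcn2, Hp, Hpx and Itih4 passed, with Spearman's rho from 0.80 to 0.98 and Pearson's r of log2(RPKM + 1) from 0.82 to 0.98. This set of 6 was not fixed in advance and leaves out the positive reactants Crp and Orm3, so that all its pairs passed is a description. All 6 pairs of Ttr with these genes passed in the negative direction, with rho from -0.95 to -0.82 and r from -0.96 to -0.77.

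The closest pair was Lcn2 and Hp (rho = 0.983, exact permutation p = 5e-05, adjusted over the 45 pairs 0.0022; r = 0.984, exact p = 1.4e-05, adjusted 0.0005; n = 9). Without M2 and M7, the livers farthest from the median of Lcn2, r was 0.962. The closest negative pair was Itih4 and Ttr (rho = -0.95, exact permutation p = 0.00035, adjusted 0.0034; r = -0.956, exact p = 5.5e-05, adjusted 0.0005), with r = -0.92 without M7 and M10. In M7 the 6 positive reactants and Orm3 were at their highest and Ttr at its lowest (2191 RPKM). In M2, 5 of the 6 positive reactants were at their lowest, and Ttr was highest in M10 (3705 RPKM), where Itih4 was lowest.

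Leaving out the 2 livers farthest from the median of the first gene of a pair left r between 0.86 and 0.96 for the 15 positive pairs and between -0.94 and -0.85 for the 6 pairs with Ttr. With ranks centred within clock phase, rho was 0.80 to 0.99 and -0.96 to -0.81 for the same pairs. The pairs share libraries and the total of each library. Without M7, 15 of the 45 pairs passed.

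Crp and Alb were correlated with no other member past the threshold. For Crp with the 6 positive reactants rho was 0.10 to 0.37 (adjusted exact p of at least 0.488), and for Alb 0.13 to 0.38 (adjusted exact p of at least 0.469). The highest Crp was in M4 (377 RPKM) and the lowest in M6 (193 RPKM), the liver with the highest Alb. Orm3 was correlated with Orm1 and Orm2 (rho = 0.80 each, adjusted exact p = 0.027) and with no other member by rho. For these pairs r was 0.71 and 0.69, which missed the threshold over the 45 pairs (adjusted exact p = 0.066 and 0.078). By r, Orm3 passed instead with Itih4 (r = 0.81, adjusted exact p = 0.016) and Ttr (r = -0.80, adjusted exact p = 0.017). Without M5 and M10, the livers farthest from the median of Orm3, these were 0.52 and -0.69 and neither passed (adjusted exact p = 0.342 and 0.141). How far reads of Orm1 or Orm2 entered the Orm3 counts behind these correlations was not tested.

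No correlation was computed over the 5 control livers. In C1, the control liver with the highest values of Orm1, Orm2, Orm3, Lcn2, Hp, Hpx and Itih4, Ttr and Alb were at their lowest of the 5. In C5, the lowest for Orm1, Lcn2, Hp, Hpx, Itih4 and Crp, Ttr was at 2929 RPKM, second to C7.

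**Figure D4:**
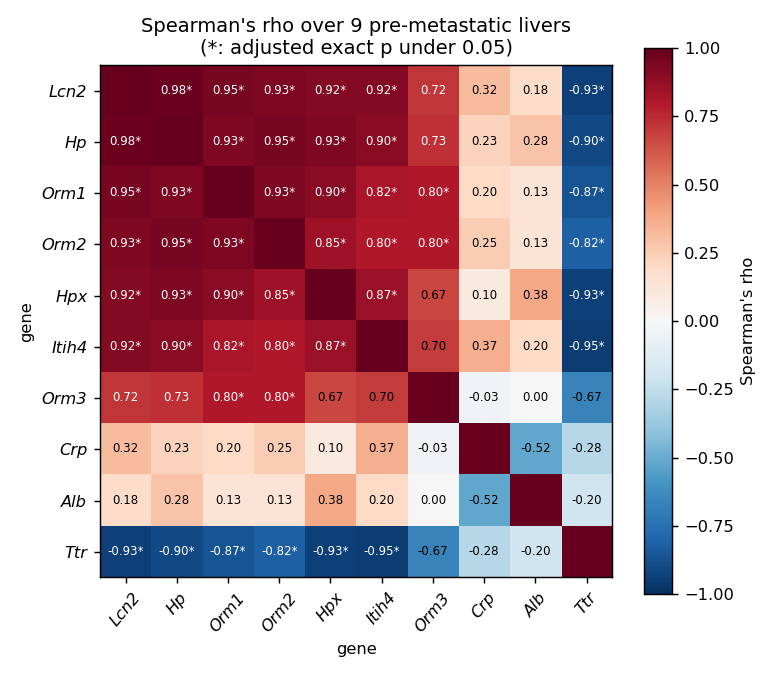
Spearman's rho between each pair of the 10 genes over 9 pre-metastatic livers, with an asterisk where the exact p adjusted over 45 pairs was under 0.05. The block of 6 positive reactants has rho from 0.80 to 0.98, Ttr is at -0.95 to -0.82 with the same genes, and Crp and Alb have no asterisk.

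Genes outside the members whose levels were most like a member over the 9 pre-metastatic livers were picked by Pearson's r among 10942 genes of at least 1 RPKM on average, and are a description with no test. For Orm2 they were Apcs (serum amyloid P, r = 0.976), Igkv6-32 (an immunoglobulin kappa variable gene, r = 0.960) and Cyb561 (r = 0.954). For Lcn2 they were Fgl1 (a fibrinogen-like liver protein, r = 0.955), Steap4 (a metalloreductase, r = 0.952) and Serpina10 (r = 0.948). For Ttr they were Ndufc2 (a subunit of mitochondrial complex I, r = 0.983), Mtx2 (r = 0.977) and Mettl22 (r = 0.975). For Crp they were Fas (a death receptor, r = 0.928), Chid1 (r = 0.898) and Ormdl2 (r = 0.885). The genes nearest to Orm2 and Lcn2 thus include other secreted liver proteins, and those nearest to Ttr include mitochondrial genes.

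Tumor expressed interleukin 6 while liver hardly did, and the members in liver were compared with it mouse by mouse. No other inducer cytokine of the tumor was compared with the members, although some had higher tumor medians than Il6. Il6 was at 0.407 to 2.61 RPKM in tumors (26 to 156 counts), lowest in M4 and highest in M8. Over the 9 mice no member in liver was correlated with tumor Il6 (rho from -0.57 for Itih4 to 0.43 for Ttr, unadjusted exact p of at least 0.121, adjusted over the 10 members at least 0.416; r from -0.41 to 0.30, adjusted exact p of at least 0.665). For the 6 positive reactants rho was -0.57 to -0.25. Without M4 and M8, the mice farthest from the median of Il6, r was -0.83 to -0.70 for the 6 positive reactants. It was -0.83 for Itih4 (exact permutation p = 0.0226, adjusted 0.0897) and 0.77 for Ttr (exact p = 0.0448, adjusted 0.0897). No relation passed after adjustment.

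In primary tumors all 10 genes were far below liver. Against pre-metastatic liver of the same mice 10 of 10 were lower and 0 higher, where 39.5% of 19749 genes tested were lower and 43.8% higher. Against control liver 10 of 10 were also lower and 0 higher, where 38.1% of 19320 genes were lower and 44.2% higher. These comparisons share libraries with each other and with that of the livers. Together the members took 0.00177 to 0.0562% of tumor counts.

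Hp, Lcn2 and Alb were the highest in tumor, with medians of 8.73, 6.03 and 4.55 RPKM, and Orm3 had 0 to 6 counts. Against pre-metastatic liver the smallest difference was that of Lcn2 (log2 fold change -8.01 ± 0.62, edgeR, adjusted p = 2.4e-10). Apart from Lcn2 and Orm3, the members ran from -11.40 ± 1.02 for Orm2 to -10.29 ± 0.61 for Hp. Of these, Orm2 had 0 to 161 counts and Crp 0 to 120 counts in tumor, with no more than 31 and 13 outside M10 and M12, so their folds rest on few reads. Against control liver Lcn2 was at -5.68 ± 0.69 and Orm2 at -6.12 ± 0.79 (adjusted p = 1.2e-06 and 2.6e-06), and Alb at -10.62 ± 1.26 and Ttr at -10.86 ± 1.05 (adjusted p = 8.9e-07 and 7.3e-08).

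The tumors of M10 and M12 stood apart in these genes. Alb was at 86.4 RPKM in tumor M10 and 173 RPKM in tumor M12, and at 2.97 to 15.01 RPKM in the other 7. The 8 hepatocyte markers were also highest there: their median level was 0.329% and 0.721% of that in the liver of the same mouse, against 0.0115 to 0.0313% in the other 7 tumors, with none at 0 in every tumor. Without these 2 mice all 10 members stayed lower than in pre-metastatic liver, with log2 fold changes of -13.37 for Crp, -13.36 for Alb, -13.20 for Orm2, -13.00 for Ttr and -7.88 for Lcn2. Without the 2 tumors the values against control liver were -12.63 for Crp, -13.18 for Alb, -7.85 for Orm2, -12.72 for Ttr and -5.52 for Lcn2. Leaving out tumor M12 alone moved Orm2 to -12.27 against pre-metastatic liver and to -6.98 against control liver.

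Lcn2 and Hp departed from the hepatocyte markers. As a percentage of the level in the liver of the same mouse, tumor Lcn2 was at 0.104 to 3.85% and Hp at 0.0560 to 0.426%. Both exceeded the highest of the 8 hepatocyte markers in 7 of 9 mice, all but M10 and M12. Orm3 exceeded the highest marker in 4 mice, with a median of 0.333% that rests on 0 to 6 counts in tumor. Orm1, Orm2 and Hpx did so in 3 mice each, Itih4 and Crp in 2 each, and Alb and Ttr in 1 each. Tumor Lcn2 was highest in M1 (18.8 RPKM), M8 (12.2 RPKM) and M2 (12.1 RPKM) and was at 2.99 and 6.03 RPKM in M10 and M12. The 10 neutrophil markers summed to 9.86 to 254 RPKM in tumors, none was at 0 in every tumor, and their part in tumor Lcn2 was not tested.

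**Figure D5:**
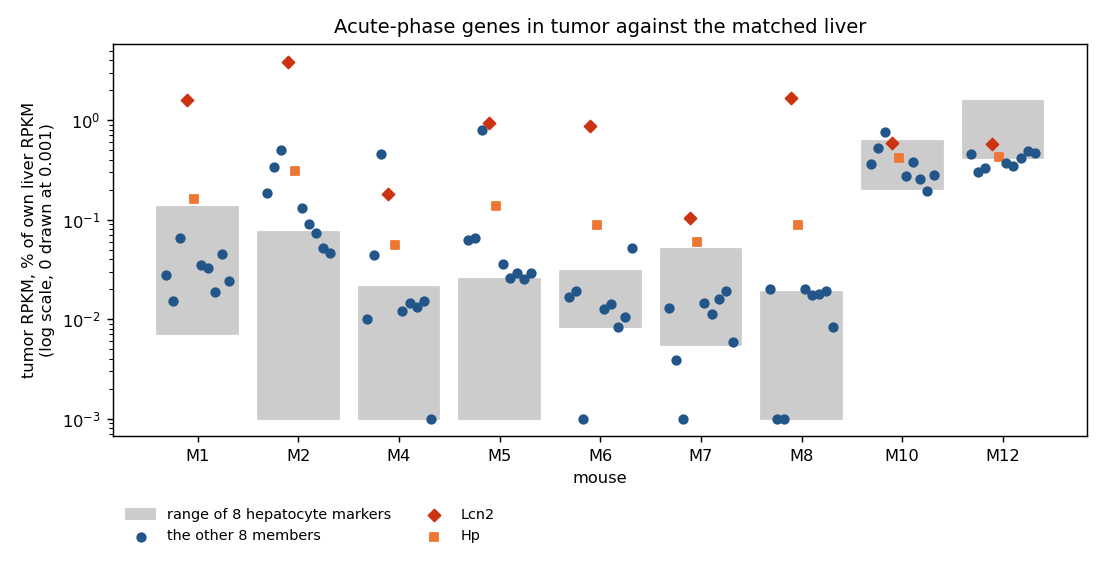
RPKM in the tumor as a percentage of RPKM in the liver of the same mouse, on a log axis with values of 0 drawn at 0.001, for the 10 genes in 9 mice; the grey bar spans the 8 hepatocyte markers. Lcn2 (0.104 to 3.85%) and Hp (0.0560 to 0.426%) lie above the grey bar in 7 mice, and the bar itself is highest in M10 and M12.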

How the data were processed

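Poly(A) RNA libraries of 5 control livers, 9 pre-metastatic livers and 9 primary tumors were analysed as deposited. The authors deposited 1 table of 48897 rows with the raw count of each gene in each library. It also holds RPKM, which the authors computed from the count, the gene length and the library total (a recomputed value differed by a share of 1.75e-06 or less). The submitters' processing notes name HISAT2, HTSeq 0.6.0 and mm10. The annotation and the strand setting are not given in the sources used here. Groups and mouse numbers were taken from the labels. Where 2 symbols stood on more than 1 row, their rows were summed.

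Genes reaching 10 counts in 5 or more libraries of a comparison were fitted with edgeR 4.0.16 (TMM, quasi-likelihood, two-sided, R 4.3.3) over all genes, with Benjamini-Hochberg adjustment and a threshold of 0.05. SE is the log2 fold change divided by the root of F. DESeq2 1.42.0, limma 3.58.1 on log2(RPKM + 1) or log2(RPKM + 0.1) and an exact rank-sum test on RPKM were alternatives. Correlations over the 9 mice carry exact two-sided permutation p values over all pairings (Python 3.11.15, numpy 2.4.6, scipy 1.17.1, pandas 2.3.3). Figures were drawn with matplotlib 3.10.9. The scripts were tested on simulated data. Libraries held 44587556 to 79773163 counts, and intervals of single counts would cover counting error only. The labels name mice for each sample, and p values measure the spread between mice.

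The tumor and the liver with 1 number come from the same mouse, per the labels. Their deviations from the group means correlated at -0.038 to 0.281 over 9563 genes, above 0.1 in 4 of 9 mice. A liver correlated best with its own tumor in 4 of 9 mice, and with the tumor of another mouse in the rest. The pairing thus rests on the labels. Tumor and liver were fitted without the block, as the study compared its tissue groups by unpaired tests. The study did relate tumors to their matched livers in its correlations. The fit with the block was an alternative.

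The members, lists and alternatives were chosen with earlier results of these data known. Named genes are the 10 members, up to 4 called genes of each list in each direction with the largest changes, and the 3 genes most like Orm2, Lcn2, Crp and Ttr. Cd163, Il6, Cyp2e1, Krt20, Muc2 and Epcam were added after their values were seen. Some results are not reported here. Promoter windows are RefSeq sequences of GRCm38.p6, the genome of mm10, and transcripts are from GENCODE.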

Additional observations from a re-analysis of the deposited data

How the results depend on the processing

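In pre-metastatic against control liver, 7 to 8 members were higher in the 24 alternatives and none was lower; the eighth was Ttr by DESeq2, with or without its outlier replacement (log2 fold change 0.30, adjusted p = 0.049 each). With library totals in place of TMM the calls over all genes were 2375 higher and 2792 lower, by the rank-sum test 1954 and 2699, and by limma on log2(RPKM + 1) 1988 and 3068, against 3009 and 2261. Leaving out C1 moved Lcn2 from 2.32 to 3.02. Some list counts moved more when each liver was left out. Lower were 2 to 5 hepatocyte transcription factors and 3 to 5 hepatocyte markers, and higher were 4 to 6 neutrophil markers. Of the other positive acute-phase genes 12 to 13 were higher. Of the member pairs, 15 (without M7) to 28 passed when each liver was left out, and no member passed with tumor Il6 under any alternative. In the 2 tumor comparisons 9 or 10 members were lower in every alternative; where it was 9, Orm3 had too few counts to be tested. In the paired fit with the mouse as a replicate block, 10 members were lower and 0 higher than in pre-metastatic liver, with log2 fold changes of -12.73 for Alb and -8.23 for Lcn2, and the replicate block changed no call. Library totals moved the median of all genes from 0.13 to 1.30 against pre-metastatic liver and from 0.18 to 1.26 against control liver, and members stayed lower. The calls over all genes were then 13352 higher and 4207 lower, and 12859 and 4131, against 8648 and 7809, and 8540 and 7355. Without tumor M12, Alb was at -11.99 against -10.92 and Orm2 at -12.27 against -11.40; without C1, Lcn2 in tumor against control liver was at -5.01 against -5.68. DESeq2 gave Crp -4.35 and Ttr -4.25 against pre-metastatic liver and Alb -4.97 against control liver, and without its outlier replacement, an alternative chosen after seeing the data, -11.28, -11.22 and -10.65. Leaving out M10 and M12, and both orosomucoid ratios with their alternatives, were also chosen after seeing the data. Orm3 in tumor (0 to 6 counts) is limited by depth.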
